A study of Mus musculus with 27 samples.

Results

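Mouse embryonic cells kept in IM2 medium, which held Activin A, were compared with cells kept in IM3 medium, which did not. The comparison used 6 of the 27 RNA sequencing libraries of the series, chosen by their titles, with 3 libraries of IM2 and 3 of IM3. Both media held basic fibroblast growth factor (bFGF, 5 ng/ml), bone morphogenetic protein (BMP, 20 ng/ml) and retinoic acid (RA, 100 nM), and neither held the GSK3 inhibitor CHIR99021. Activin A was at 10 ng/ml in IM2 and absent from IM3, and it was the only factor that differed. All cells came from 1 clone (clone 7) of an XY embryonic stem cell (ESC) line with the TESCO-CFP reporter and the R26-rtTA transgene, on an F1 background of C57BL/6 and CBA. Before the IM stage, cells of both groups had spent 60 h in bFGF (12 ng/ml) and Activin A (20 ng/ml) at the EpiSC stage, so the cells of IM3 had also met Activin A. They had then spent 36 h at the mesoderm stage (M) in BMP4 (10 ng/ml), bFGF (20 ng/ml) and the phosphatidylinositol 3-kinase inhibitor LY294002 (10 µM). The IM stage lasted 3.5 days. The other groups are ESC, EpiSC, M, IM1 (bFGF and BMP alone), IM4 and IM5 (IM3 and IM2 with CHIR99021) and iSLC (induced Sertoli-like cells), with 3 libraries each. The study calls the libraries of a group biological replicates, but the labels do not say whether they came from separate cultures. The p-values below thus measure a spread between libraries. For edgeR this is the spread within groups over all 27 libraries of the fit, not that of IM2 and IM3 alone.

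Activin A is a secreted ligand of the TGF-beta superfamily that binds the receptors ACVR2A or ACVR2B together with ACVR1B, which then phosphorylate SMAD2 and SMAD3. These proteins enter the nucleus with SMAD4 and act on genes together with partners such as FOXH1 and EOMES. Nodal, the ligand that drives primitive streak, endoderm and left-right patterning in the embryo, uses the same receptors with the co-receptor encoded by *Tdgf1*, and the pathway is held in check by inhibitors among its own targets, such as *Lefty1*, *Lefty2* and *Smad7*.

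The libraries of IM2 held 57083747 to 61654389 expected counts and those of IM3 39365494 to 55640100. Replicates differed by more than counting noise, with a chi-square per degree of freedom of 5.34 to 16.4 between pairs. Read counts followed the GC content of genes differently in the libraries. The GC trend, the median log2 deviation from a gene's mean over all libraries in genes with an exonic GC content of at least 54.6% minus that in genes of at most 45.4%, was -0.10, 0.16 and 0.17 in replicates 1, 2 and 3 of IM2 and -0.21, -0.08 and -0.42 in those of IM3. Its mean was 0.07 ± 0.15 in IM2 and -0.24 ± 0.17 in IM3 (SD, n = 3 each). The difference of 0.31 was not beyond the spread of the libraries (two-sided exact permutation test, p = 0.2, where 0.1 is the smallest p that 3 libraries against 3 can give), since replicate 1 of IM2 lay below replicate 2 of IM3. Without that library of IM2 the difference was 0.40. Over 10 classes of genes by GC content, the median log2 fold change of IM2 over IM3 went from -0.16 at a GC content of 40.6% to 0.26 at 59.4%, and lay between -0.03 and 0.01 in every class once the trend of each library was taken out with an offset. The summed counts of 6 genes of adult red blood cells came to 0.375 to 0.587 CPM (counts scaled to the library total) in IM2 and 6.14 to 19.6 CPM in IM3, and those of 9 immediate-early and heat-shock genes to 299 to 375 and 173 to 197 CPM (p = 0.1 each by the same exact permutation test). Mitochondrial genes took 1.47% to 1.66% of the counts in IM2 and 1.71% to 1.96% in IM3 (p = 0.1, same exact test). The total expected counts, red cell genes, stress genes and mitochondrial share did not overlap between the media, so these cannot be told apart from the medium. The part of these measures and of the GC trend in the results below was not tested.

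**Figure D1:**
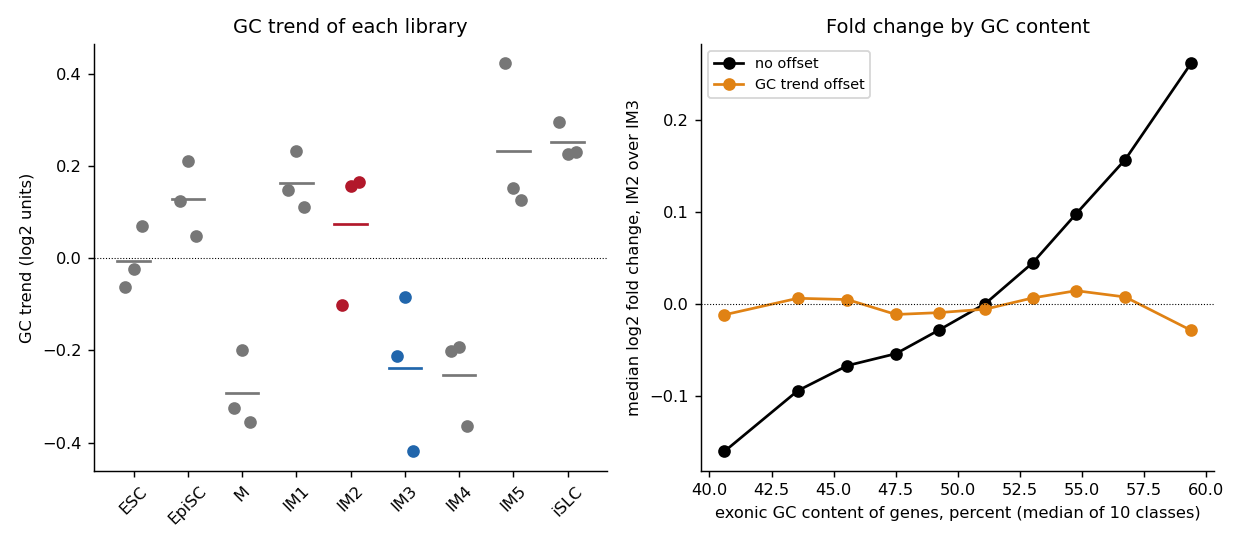
Left, the GC trend of each library in log2 units, with a point for each library and a line at the mean of each group of 3. Right, the median log2 fold change of IM2 over IM3 in 10 classes of genes ordered by exonic GC content, before (black) and after (orange) the GC trend offset. Replicate 1 of IM2 lies at -0.10, within the range of the IM3 libraries, and the other IM2 libraries at 0.16 and 0.17 lie above it.

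Of 20839 genes tested, 512 were called higher and 280 lower in IM2, which is 2.46% and 1.34% of the genes tested. Genes were called where the edgeR adjusted p was 0.01 or less, the fold was 2 or more, and the normalized read count averaged 100 or more across the 27 libraries as well as in IM2 or IM3. A normalized read count is a count scaled to the mean library size, not corrected for length, and the median log2 fold change of all genes tested was 0.00. Of the called genes, 88 higher and 58 lower ones differed at least 4-fold. The libraries of the groups did not overlap for 511 of the 512 higher and 279 of the 280 lower genes, while 47.8% of all genes tested did not overlap. With the GC trend offset, 431 genes (2.07%) were called higher and 311 (1.49%) lower, which include 412 (80.5%) of the 512 and 270 (96.4%) of the 280. In bulk RNA, fewer cells of a type and less RNA per cell cannot be told apart, for any gene described here.

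*Lefty1*, *Eomes* and *Six2*, the marker genes of this comparison, were higher in every library of IM2. *Lefty1* (ENSMUSG00000038793, GRCm38 chr1:180935022-180938400) encodes a secreted inhibitor of Nodal. Its normalized read counts were 550, 592 and 657 in IM2 and 12.6, 26.8 and 11.6 in IM3, a log2 fold change of 5.18 ± 0.22 (SE, edgeR adjusted p = 1.49e-15). *Eomes* (ENSMUSG00000032446, chr9:118478212-118486132), a T-box transcription factor of the primitive streak, endoderm and trophoblast, had 2067, 1959 and 2065 in IM2 and 51.4, 61.0 and 46.5 in IM3, a log2 fold change of 5.26 ± 0.15 (edgeR adjusted p = 1.32e-18). The groups did not overlap for either gene. *Six2* (ENSMUSG00000024134, chr17:85684277-85688274), which keeps nephron progenitors of the kidney undifferentiated, had 490, 496 and 525 in IM2 and 47.2, 65.4 and 39.2 in IM3, again with no overlap (log2 fold change 3.32 ± 0.17, edgeR adjusted p = 2.93e-14). At the M stage that came before, the mean was 152 for *Lefty1*, 19821 for *Eomes* and 1304 for *Six2*. *Lefty1* was thus above its M level in IM2 and below it in IM3, while *Eomes* and *Six2* were below their M levels in both media. With the GC trend offset the log2 fold changes were 4.87, 5.14 and 2.84, and all 3 calls were kept.

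**Figure D2:**
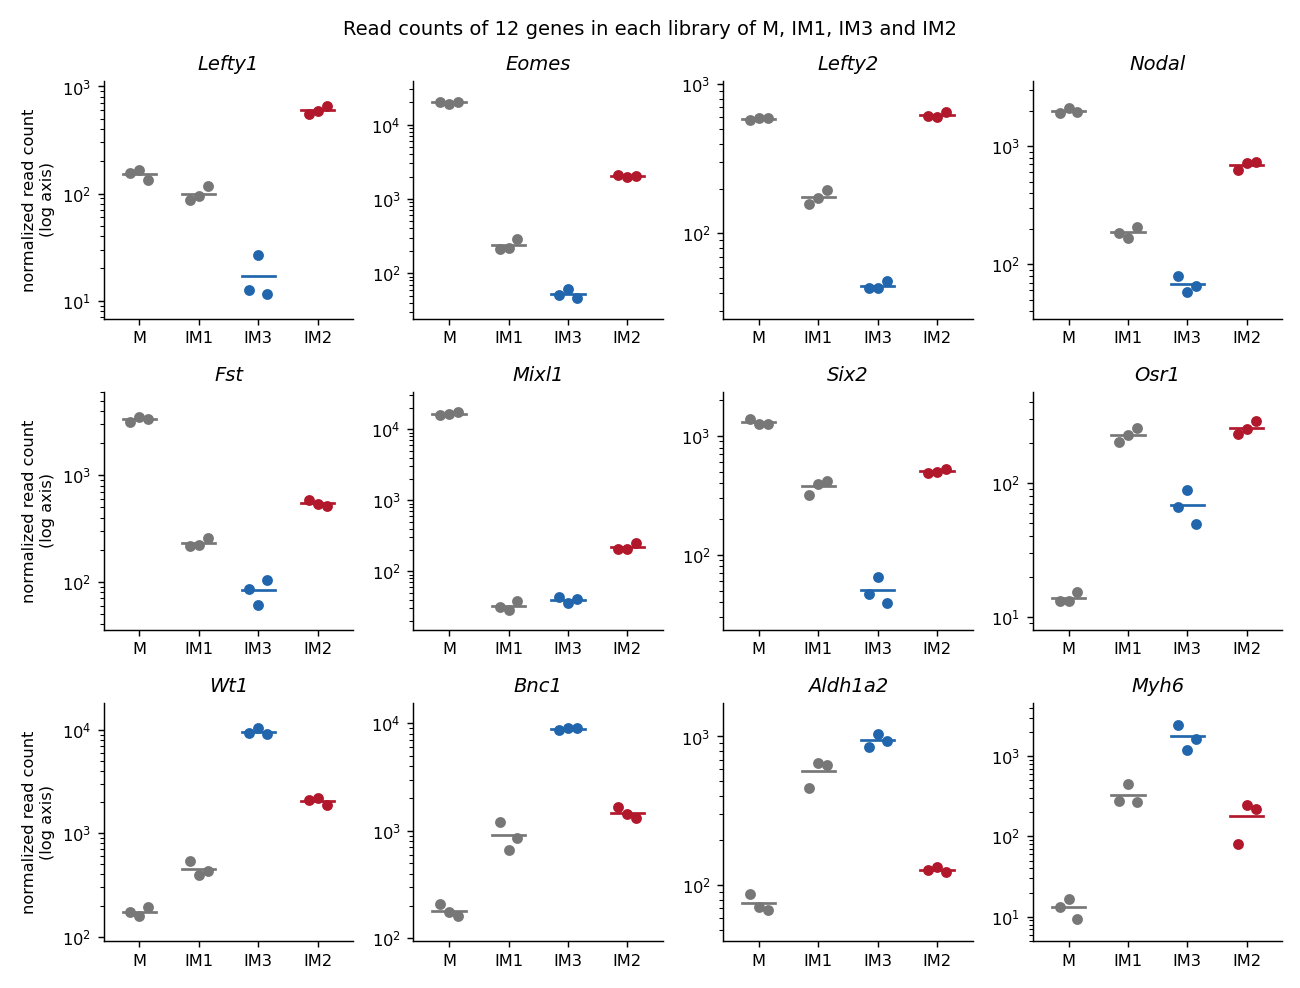
Normalized read counts (log axis, 1 scale per gene) of 12 genes in each library of M, IM1, IM3 (blue) and IM2 (red), with a point for each library and a line at the mean of 3. The 8 genes from *Lefty1* to *Osr1* lie higher in every IM2 library than in every IM3 library, and *Wt1*, *Bnc1*, *Aldh1a2* and *Myh6* lie lower.

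The 250 bases before the RefSeq start of *Eomes*, *Nodal* and *Six2* are shown because these genes moved together and have an entry in the RefSeq promoter table (GRCm38.p6). This start can differ from the gene bounds given above: the *Eomes* window ends short of its gene, and the *Six2* window reaches into its gene. The bases after the window were found in a transcript of the gene for *Nodal* and *Six2* but not for *Eomes*, whose start is uncertain. The 5-base Smad box CAGAC was searched on both strands and is in capitals, with GTCTG as its reverse complement. It occurred once in *Six2* and not in the other 2, and 42.2% of all 32851 promoters in the table hold it in a window of this length. The core AATNNACA, the form bound by FOXH1, was found in none of the 3 and is in 10.9% of all promoters. Of the genes called higher in IM2, 369 have a promoter in the table and 46.1% of these held CAGAC, beside 42.4% of the 198 genes called lower and 41.6% of the 13644 genes tested that have one.
Eomes (chr9:118477939-118478188, plus strand): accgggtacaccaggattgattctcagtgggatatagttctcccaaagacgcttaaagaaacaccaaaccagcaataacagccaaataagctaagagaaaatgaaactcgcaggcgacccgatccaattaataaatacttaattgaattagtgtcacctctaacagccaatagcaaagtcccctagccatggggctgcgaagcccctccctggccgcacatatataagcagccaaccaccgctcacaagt
Nodal (chr10:61417722-61417971, plus strand): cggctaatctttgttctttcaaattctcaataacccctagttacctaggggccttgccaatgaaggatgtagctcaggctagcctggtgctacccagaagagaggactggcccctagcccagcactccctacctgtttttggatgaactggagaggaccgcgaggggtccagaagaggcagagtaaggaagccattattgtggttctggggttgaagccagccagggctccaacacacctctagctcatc
Six2 (chr17:85688255-85688504, minus strand): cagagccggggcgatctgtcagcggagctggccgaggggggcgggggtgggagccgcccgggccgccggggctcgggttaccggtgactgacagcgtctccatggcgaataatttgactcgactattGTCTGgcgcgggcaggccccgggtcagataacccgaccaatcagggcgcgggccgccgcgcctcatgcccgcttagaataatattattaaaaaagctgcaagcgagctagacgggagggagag

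Genes known to respond to Nodal and Activin included many that were higher in IM2. Of 19 such genes, all tested, 10 (52.6%) were called higher, beside 2.46% of all genes tested, and 0 lower, with a median log2 fold change of 1.45, and 4 others had means too low to be called. *Lefty2* (chr1:180893108-180899103), the neighbor of *Lefty1* and also an inhibitor of Nodal, had normalized read counts of 613, 602 and 656 in IM2 and 43.0, 43.1 and 47.9 in IM3 (log2 fold change 3.80 ± 0.19, edgeR adjusted p = 2.41e-14). *Nodal* itself (chr10:61417972-61425338), which acts on its own gene, had 633, 718 and 736 in IM2 and 79.8, 58.0 and 65.4 in IM3 (log2 fold change 3.33 ± 0.16). *Mixl1*, a homeobox gene of the primitive streak, had 206, 205 and 254 in IM2 and 43.0, 35.7 and 40.7 in IM3. None of these genes had an IM3 library within the range of IM2. The response genes *Pmepa1*, which encodes an inhibitor of SMAD signaling, *Foxh1*, *Lhx1* and *Foxa2* were called higher by log2 fold changes of 2.17, 1.78, 1.45 and 1.22. *Tdgf1*, the co-receptor gene, was called higher by 1.09, but it had no call when replicate 1 of IM2 was left out (0.94) or with an offset for effective length (0.90). The inhibitor *Smad7* had a log2 fold change of 0.71, *Ltbp1*, which encodes a protein that holds latent TGF-beta in the matrix, 0.63, and *Skil*, a repressor of SMAD proteins, 0.23, all short of the fold required. *Gsc* had 17 to 22 counts in IM2 and 1 to 2 in IM3, and *Fgf8* 27 to 43 and 0 to 3, both under the count minimum. *Cer1* had at most 1 count in any of the 6 libraries and was not detectable at this depth.

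Divided by transcript length, 5 of these genes had levels of the same order in IM2. Mean TPM (abundance per length, scaled to 1 total per library) in IM2 was 18.2 for *Eomes*, 12.6 for *Lefty1*, 10.5 for *Nodal*, 8.53 for *Lefty2* and 7.33 for *Fst*. In IM3 the same genes had mean TPM values of 0.487, 0.44, 1.05, 0.927 and 1.15.

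Among the components of the pathway, the genes called higher were the ligands *Inhba*, *Nodal* and *Tgfb1*, the secreted inhibitors *Lefty1*, *Lefty2*, *Fst* and *Fstl3*, the co-receptor *Tdgf1* and the SMAD partner *Foxh1*. Of 35 components, 9 (25.7%) were called higher and 1 (2.86%) lower in IM2, beside 2.46% and 1.34% of all genes tested. Their median log2 fold change was 0.41. Among ligands, *Inhba*, which encodes the subunit of Activin A itself, was called higher, with a mean of 202 in IM2 and 72.0 in IM3 (log2 fold change 1.50 ± 0.25, edgeR adjusted p = 1.85e-05). *Tgfb1* was called higher by 1.01, but not with the GC trend offset (0.88), while *Tgfb2* and *Tgfb3* had log2 fold changes of -0.62 and -0.79 and were not called. Among secreted inhibitors, *Fst*, which encodes the Activin-binding protein follistatin, had normalized read counts of 588, 538 and 509 in IM2 and 86.1, 61.0 and 105 in IM3, with no overlap (log2 fold change 2.69 ± 0.16). The related *Fstl3* was called higher by 1.23. Of the receptor genes, *Tgfbr3*, the betaglycan co-receptor, was the 1 gene called lower, at 1555, 1647 and 1513 in IM2 and 3372, 3161 and 3478 in IM3 (log2 fold change -1.09 ± 0.10). The receptors for Activin A had log2 fold changes of -0.41 for *Acvr2a*, 0.12 for *Acvr2b* and 0.16 for *Acvr1b*, and the transducers 0.10 for *Smad3*, -0.08 for *Smad2* and 0.16 for *Smad4*, none of them called.

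**Figure D3:**
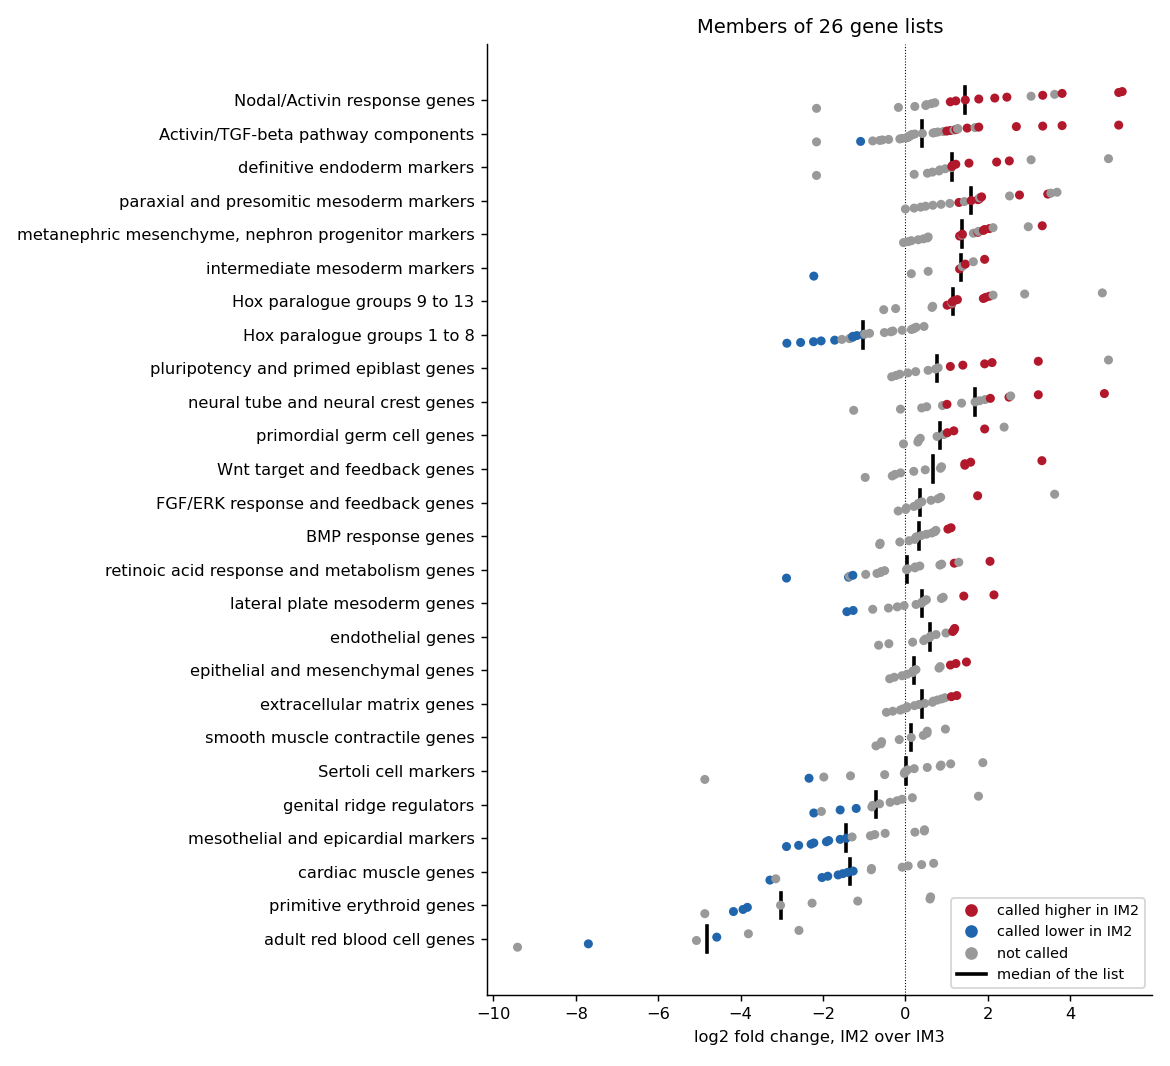
Log2 fold change of IM2 over IM3 for each tested member of 26 gene lists, with a point for each gene (red called higher, blue called lower, gray not called) and a black bar at the median of the list. The red points gather in the Nodal/Activin, endoderm, nephron progenitor, paraxial and posterior Hox lists, and the blue ones in the anterior Hox, mesothelial, cardiac and blood lists.

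Genes listed as markers of definitive endoderm included 6 of 16 (37.5%) called higher and 0 lower, beside 2.46% and 1.34% of all genes tested. Their median log2 fold change was 1.12. High Nodal signaling induces this tissue in the embryo, but *Sox7* is not particular to it. The pioneer factors *Foxa1* and *Foxa2*, *Sox7* and *Sox17*, the chemokine receptor gene *Cxcr4* and the hormone gene *Trh* were called. *Sox17* had normalized read counts of 501, 583 and 631 in IM2 and 216, 168 and 200 in IM3, and *Cxcr4* 460, 423 and 449 in IM2 and 94.5, 92.2 and 100 in IM3. Neither gene overlapped between the groups. IM1 lacks both Activin A and retinoic acid. There *Sox17* (1143), *Sox7* (945) and *Cxcr4* (584) had means above those of IM2 (571, 434 and 444). In contrast *Foxa1* (136), *Foxa2* (413) and *Trh* (127) in IM1 lay below their IM2 means (214, 435 and 524). The summed counts of the 16 markers were 141 to 159 CPM in IM2 and 78.5 to 87.5 CPM in IM3, *Cer1* was near 0 in both, and *Hhex* (log2 fold change 0.84) and *Hnf4a* (0.21) were not called.

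Of 14 pluripotency and primed epiblast genes, 5 (35.7%) were called higher, beside 2.46% of all genes tested, 0 lower and 9 were not called. *Sox2*, a factor of pluripotent cells that is also used in the neural plate, had 805, 774 and 879 in IM2 and 79.8, 106 and 79.9 in IM3 (log2 fold change 3.23 ± 0.12, edgeR adjusted p = 1.73e-16). *Pou5f1*, which encodes OCT4, was at 1203, 1155 and 1256 in IM2 and 270, 367 and 325 in IM3. The groups were far apart for both genes, and *Utf1* and *Nanog* were also called higher, by 2.10 and 1.39. *Lin28a*, a regulator of developmental timing that was at a mean of 34683 at the M stage, had a log2 fold change of -0.23 and was not called. The primed epiblast genes *Fgf5*, *Dnmt3b* and *Pou3f1* had log2 fold changes of -0.14, 0.25 and 0.55 (0.04 for *Pou3f1* with the GC trend offset), and *Lin28b* one of -0.33, none of them called. *Otx2* had 46 to 71 counts in IM2 and 1 to 2 in IM3, so neither group reached the count minimum. Of 10 primordial germ cell genes 3 were called higher and 0 lower, beside 2.46% and 1.34% of all genes tested. These were *Pou5f1*, *Prdm1* (1.18) and *Tfap2c* (1.02). *Tfap2c* was not called with the GC trend offset (0.99), without replicate 1 of IM2 (0.998) or without replicate 3 of IM3 (0.999). The germ cell genes *Ddx4*, *Dppa3* and *Nanos3* were not called.

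Of 15 neural genes tested, 5 (33.3%) were called higher and 0 lower, beside 2.46% and 1.34% of all genes tested. *Sox3*, a neural plate and epiblast factor related to *Sox2*, had 353, 491 and 527 normalized read counts in IM2 and 19.9, 4.46 and 21.8 in IM3 (log2 fold change 4.83 ± 0.27). *Nkx1-2*, a gene of the caudal epiblast, and *Zic2* were called higher by 2.51 and 2.06. *Tubb3* was called at 1.01, but not with the GC trend offset (0.81), without replicate 3 of IM2 (0.91) or without replicate 3 of IM3 (0.95). The neural progenitor markers *Sox1* and *Pax6* had at most 11 counts in any of the 6 libraries, and the intermediate filament gene *Nes* was not called (log2 fold change 0.52). The summed counts of the list were 379 to 401 CPM in IM2 and 231 to 254 CPM in IM3.

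The intermediate mesoderm gives rise to the kidneys and gonads, and its markers were split. *Osr1*, the earliest of these markers, had 231, 253 and 291 normalized read counts in IM2 and 66.1, 89.2 and 49.4 in IM3 (log2 fold change 1.92 ± 0.18, edgeR adjusted p = 3.47e-09). *Lhx1* and *Eya1* were also called higher, by 1.45 and 1.32. *Wt1*, which encodes a zinc finger factor of the kidney, gonad and mesothelium, was the 1 marker called lower: it had 2084, 2222 and 1893 in IM2 and 9266, 10501 and 9174 in IM3 (log2 fold change -2.22 ± 0.09, edgeR adjusted p = 1.24e-15). Every IM2 library was thus below every IM3 library for *Wt1*, and above every IM3 library for *Osr1*. The defining markers *Pax2* and *Pax8* were nearly absent from both groups, with 6 to 16 and 2 to 4 counts in IM2 and 1 to 7 and 0 to 1 in IM3, so the label of intermediate mesoderm rests on the other markers.

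The metanephric mesenchyme and nephron progenitors form the nephrons of the kidney. Their list had 7 of 19 members (36.8%) called higher, beside 2.46% of all genes tested, and 0 lower (median log2 fold change 1.38). Besides *Six2*, *Osr1* and *Eya1*, the called members were *Hoxa11*, *Hoxd11*, *Meox1* and *Crym*. *Hoxa11* had 878, 1012 and 917 in IM2 and 249, 248 and 259 in IM3, and *Meox1*, a homeobox gene also of the somites, 980, 941 and 956 in IM2 and 254, 357 and 244 in IM3. The list was not uniform, since *Sall1*, *Itga8*, *Ret* and *Wnt4* had log2 fold changes of 0.14, -0.05, 0.07 and 0.31 and were not called. *Gdnf*, the ligand that draws out the ureteric bud, had a mean of only 38.4 in IM2 and 4.70 in IM3 and was under the count minimum.

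Among 19 tested markers of paraxial and presomitic mesoderm, 7 (36.8%) were called higher and 0 lower, beside 2.46% and 1.34% of all genes tested. The median log2 fold change of the 19 markers was 1.60, and 11 of them had means under the minimum. *T*, or Brachyury, was at 107, 104 and 121 in IM2 and 3.15, 16.4 and 13.1 in IM3, beside a mean of 26796 at the M stage. *Cdx2*, a regulator of posterior Hox genes, had 1167, 1309 and 1287 in IM2 and 389, 323 and 324 in IM3, and its relative *Cdx1* was called higher by 2.77. The somite gene *Tcf15* was called at 1.60, but not with the GC trend offset (1.09). *Foxc2* had 4812, 6432 and 6483 in IM2 and 1790, 1749 and 1554 in IM3 (log2 fold change 1.80 ± 0.12, and 1.32 with the GC trend offset). The presomitic gene *Msgn1* had 0 counts in all 6 libraries, and *Tbx6*, *Dll1* and *Lfng* were not called.

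Lateral plate genes moved both ways. *Tbx4*, a hindlimb and allantois factor, had 2644, 2876 and 2422 normalized read counts in IM2 and 622, 623 and 540 in IM3 (log2 fold change 2.15 ± 0.11), and *Isl1* was called higher by 1.42. *Tbx5*, its forelimb and heart counterpart, was at 1114, 1243 and 1216 in IM2 and 2796, 3261 and 2551 in IM3 (log2 fold change -1.27 ± 0.11), and the heart and gut factor *Gata5* was called lower by -1.42. The 2 related T-box genes thus differed in opposite directions with no overlap of the groups. *Gata6*, *Hand2*, *Bmp4* and *Tbx20* were not called, at -0.20, 0.39, 0.40 and -0.03.

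The Hox genes divided by their place in the clusters. Hox genes mark positions from head to tail, with low paralogue numbers in front and high numbers behind. Of the 16 genes of paralogue groups 9 to 13, 8 were called higher in IM2 and 0 lower (median log2 fold change 1.16). Of the 23 genes of groups 1 to 8, 0 were called higher and 9 lower (median -1.03, and -1.15 with the GC trend offset). Among all genes tested, 2.46% were called higher and 1.34% lower. *Hoxd11* had 445, 560 and 476 in IM2 and 122, 104 and 134 in IM3, and *Hoxa13* 842, 809 and 755 in IM2 and 189, 232 and 206 in IM3. At the front, *Hoxa4* had 80.2, 85.9 and 91.3 in IM2 and 563, 726 and 609 in IM3 (log2 fold change -2.88 ± 0.19), and *Hoxc5* 62.6, 68.3 and 45.2 in IM2 and 319, 370 and 338 in IM3. None of these 4 genes overlapped between the groups. Within the *Hoxa* cluster, *Hoxa2* to *Hoxa5* were all called lower and *Hoxa9*, *Hoxa10*, *Hoxa11* and *Hoxa13* all called higher, with *Hoxa6* and *Hoxa7* between them not called, and *Hoxa9* (1.01) lost its call with the GC trend offset (0.99). Of *Hoxb* genes, 10 were tested and none was called by edgeR with all 3 thresholds: *Hoxb2* to *Hoxb9* had log2 fold changes from -0.51 (*Hoxb7*) to 0.26 (*Hoxb8*), while *Hoxb1* had -1.36 and *Hoxb13* 1.13 at low counts. *Hoxd9* was the 1 tested gene of groups 9 to 13 besides *Hoxb9* with a negative value (-0.53).

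**Figure D4:**
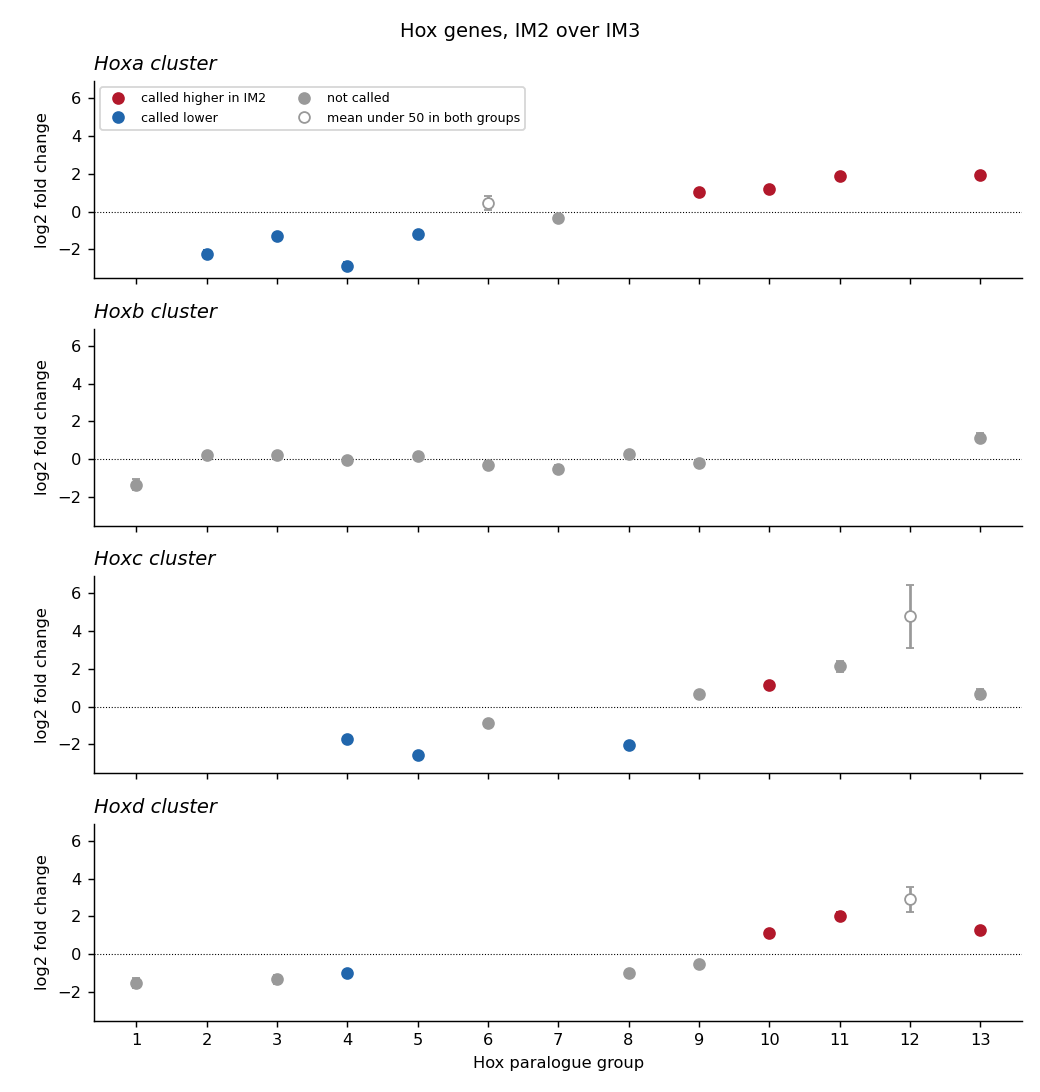
Log2 fold change of IM2 over IM3 (± SE, often smaller than the point) for tested Hox genes, by paralogue group on the horizontal axis and by cluster in 4 panels. Genes called lower (blue) lie in groups 1 to 8 and genes called higher (red) in groups 9 to 13, and no gene of the *Hoxb* cluster was called.

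Mesothelial and epicardial markers were lower in IM2. Mesothelium is the epithelium that lines the body cavities. Of its 15 markers, 8 (53.3%) were called lower, beside 1.34% of all genes tested, and 0 higher (median log2 fold change -1.43). *Upk3b*, a uroplakin of mesothelial cells, had 6195, 7117 and 6171 normalized read counts in IM2 and 24321, 25677 and 23537 in IM3 (log2 fold change -1.92 ± 0.17, edgeR adjusted p = 1.04e-09). *Bnc1*, which encodes a zinc finger factor, had 1660, 1437 and 1325 in IM2 and 8675, 8971 and 8992 in IM3. *Aldh1a2*, the enzyme that makes retinoic acid in the embryo, had 126, 132 and 122 in IM2 and 853, 1041 and 925 in IM3 (log2 fold change -2.89 ± 0.13, edgeR adjusted p = 4.67e-15). The groups were separate for all 3 genes, and *Wt1*, *Tbx18*, *Upk1b*, *Tcf21* and *Lrrn4* were called lower as well. The keratin genes *Krt8* and *Krt18* had log2 fold changes of 0.46 each and were not called. The summed counts of this list ran from 3000 to 3220 CPM in IM2 and from 3830 to 3950 CPM in IM3.

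Of 12 genital ridge regulators, 0 were called higher and 3 lower, beside 2.46% and 1.34% of all genes tested. Their median log2 fold change was -0.71. Those called were *Wt1*, *Tcf21* (-1.58) and *Nr2f2* (-1.19). *Gata4*, which is needed for the ridge to form, had 13198, 14827 and 15009 in IM2 and 23959, 27200 and 23405 in IM3, a log2 fold change of -0.79 that missed the fold required although the groups did not overlap, and that was called at -1.23 with an offset for effective length. *Lhx9* had a mean of 51.2 in IM2 and 211 in IM3 and was held from a call by its mean over all libraries, and *Emx2* had -0.20. *Nr5a1*, the master regulator of the gonad, had 7 to 13 counts in IM2 and 3 to 9 in IM3, too few to compare. Of 15 Sertoli cell markers tested, 1 (6.67%) was called lower, beside 1.34% of all genes tested, and 0 higher. This was *Erbb4* (-2.34, and -1.97 without a call with an offset for effective length), and *Sox9* had a log2 fold change of 0.53.

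Of 14 cardiac muscle genes, 7 were called lower in IM2 and 0 higher, beside 1.34% and 2.46% of all genes tested. Their median log2 fold change was -1.33. *Myh6*, the alpha myosin heavy chain of the heart, had 80.2, 247 and 217 in IM2 and 2462, 1181 and 1655 in IM3 (log2 fold change -3.29 ± 0.29, edgeR adjusted p = 6.94e-10). *Myl7*, the atrial light chain, had 306, 566 and 469 in IM2 and 2523, 1164 and 1748 in IM3, and *Actc1* 1460, 1916 and 2173 in IM2 and 7115, 3408 and 5346 in IM3. The IM3 libraries varied among themselves in these genes, with replicate 1 highest and replicate 2 lowest in each, and all IM3 libraries were above all IM2 libraries. The troponin genes *Tnnt2* and *Tnni1* were at -0.08 and 0.07 with overlapping groups.

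Globin genes were lower in IM2. The primitive globins *Hbb-y*, *Hba-x* and *Hbb-bh1*, which serve the first red cells of the embryo, were called lower by -4.17, -3.94 and -3.84. *Hba-x* had 38.2, 60.0 and 45.2 in IM2 and 722, 813 and 665 in IM3, beside a mean of 0.764 at the M stage. *Hbb-y* lost its call when any 1 IM3 library was left out, at log2 fold changes of -4.26, -4.16 and -4.10, since its mean over all libraries then fell under the minimum. The adult globin *Hbb-bs* had 2, 1 and 0 counts in IM2 and 68, 280 and 151 in IM3, so it was at least 79.2-fold lower against a floor of 3 counts per library. Its relatives *Hba-a1*, at 7.83, 17.6 and 3.85 in IM2 and 160, 311 and 232 in IM3, and *Hbb-bt*, which had 0 counts in every IM2 library, went the same way, and near-identical globin copies may share reads. Adult globins were also counted in the M libraries, where *Hbb-bs* had a mean of 460. The 6 adult red cell genes summed to 4.02 to 27.6 CPM in undifferentiated ESC and 12.5 to 21.3 CPM in M. In EpiSC they came to 0.589 to 0.866 CPM, in IM1 to 0.923 to 1.38 and in iSLC to 0.73 to 0.971. These levels thus did not follow the order of the stages, and the source of the adult globin reads was not tested. All 6 adult red cell genes were lower without overlap. Of 9 primitive erythroid genes, 6 were lower and 2 higher without overlap, beside 47.8% of all genes tested without overlap in either direction. *Tal1* and *Epor*, which act at the start of this lineage, had log2 fold changes of 0.61 and 0.60.

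Endothelial genes had smaller log2 fold changes than the globin genes. Of 12, 3 were called higher and 0 lower, beside 2.46% and 1.34% of all genes tested. These were *Pecam1* (1.15), *Sox18* (1.18) and *Etv2* (1.20), and the last 2 were not called with the GC trend offset (0.80 and 0.93). In this list 10 of 12 were higher and 2 lower without overlap, beside 47.8% of all genes tested without overlap in either direction. *Pecam1*, an adhesion molecule of vessels, had 2317, 2129 and 2503 normalized read counts in IM2 and 1171, 855 and 1095 in IM3. *Kdr* and *Tek*, receptors for VEGF and angiopoietin, had log2 fold changes of 0.18 and -0.65 and were not called. The list summed to 275 to 295 CPM in IM2 and 216 to 239 CPM in IM3.

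Of the other signaling pathways, genes of Wnt feedback included 4 of 12 (33.3%) called higher, beside 2.46% of all genes tested, and 0 lower. *Sp5*, a direct Wnt target, had 180, 186 and 230 in IM2 and 18.9, 17.8 and 23.2 in IM3 (log2 fold change 3.31 ± 0.20), and *Lef1* 6950, 6855 and 7030 in IM2 and 2551, 1994 and 2390 in IM3. The Wnt inhibitors *Dkk1* and *Nkd1* were each called higher by 1.44. *Axin2*, the most used reporter of this pathway, had a log2 fold change of -0.32 and *Tcf7* one of -0.12, so the list was split. In the FGF list *Etv1* was the 1 of 12 (8.33%) called (1.75). *Etv4*, *Il17rd* and *Dusp4* had log2 fold changes of 0.86, 0.79 and 0.62, short of the fold required. The ERK feedback genes *Spry1*, *Spry2*, *Spry4* and *Dusp6* lay between -0.18 and 0.40. In this list 9 of 12 were higher and 1 lower without overlap, beside 47.8% of all genes tested without overlap in either direction. The BMP list had 2 of 14 (14.3%) called higher, *Smad6* (1.11) and *Msx2* (1.03), beside 2.46% of all genes tested. *Smad6* was at 0.76 without a call under the GC trend offset. *Msx2* was at 0.99 without a call when replicate 1 of IM2 was left out. The BMP targets *Id1*, *Id2* and *Id3* had log2 fold changes of 0.51, -0.61 and 0.26.

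Genes of retinoic acid response and metabolism had 2 of 19 (10.5%) called higher and 3 (15.8%) lower, beside 2.46% and 1.34% of all genes tested. Their median of 0.03 became -0.24 with the GC trend offset. The enzymes that make retinoic acid went in opposite directions: *Aldh1a2* was lower, as given above, *Aldh1a1* was lower (-1.38), and *Aldh1a3* had 389, 431 and 491 in IM2 and 120, 98.1 and 94.4 in IM3 (log2 fold change 2.05 ± 0.18). *Cyp26a1*, which degrades retinoic acid, had 2447, 2760 and 3039 in IM2 and 1231, 1200 and 1188 in IM3. The receptor gene *Rarb* had a log2 fold change of -0.59 and *Dhrs3* one of -0.61, and neither was called.

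Among mesenchymal and matrix genes, *Vim*, the intermediate filament vimentin, was called higher and was the most abundant of the called genes per length. It had a mean of 3200 TPM in IM2 and 1592 TPM in IM3 (log2 fold change of the counts 1.09 ± 0.06). *Twist2* and *Snai1*, factors of mesenchymal cells, were called higher by 1.48 and 1.23, the latter at 0.93 and without a call under the GC trend offset. *Cdh1* and *Cdh2*, the cadherins of epithelial and mesenchymal cells, were not called (0.18 and 0.26). Of 16 matrix genes known as TGF-beta responsive, 2 (12.5%) were called higher, beside 2.46% of all genes tested, and 0 lower. The 2 were *Tgfbi* (1.25) and the gene listed as *Ctgf* (1.12, *Ccn2* in the annotation used). *Fn1* and *Col1a1* had log2 fold changes of 0.04 and 0.47. No gene of 9 in the smooth muscle list was called by edgeR, and *Acta2* had 89421, 90684 and 94444 in IM2 and 52367, 41854 and 45807 in IM3 (log2 fold change 0.97 ± 0.08, edgeR adjusted p = 6.33e-10), just under the fold required, and was called at 1.06 without replicate 1 of IM3.

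Abundant genes that were lower in IM2 included *Myrf*, a membrane-bound transcription factor, at mean TPM values of 130 ± 9.04 in IM2 and 378 ± 36.0 in IM3, and *Ezr*, which links actin to the membrane, at 124 ± 5.25 and 280 ± 13.5 (SD, n = 3 each). *Tmem98* was lower as well, at 111 ± 2.66 and 238 ± 6.60 TPM. Among abundant genes that were higher, the small heat-shock gene *Hspb1* was at 643 ± 95.6 TPM in IM2 and 236 ± 32.1 in IM3. *Cd63*, a marker of late endosomes and exosomes, was at 886 ± 16.1 and 452 ± 12.2 TPM, and its log2 fold change of the counts moved from 1.03 to 0.97, without a call, with the GC trend offset. The pseudogenes *Gm14303* and *Rpl39-ps* were also among these genes and are uncertain, since they can share reads with their parent genes. *Gm14303* had a log2 fold change of 0.17 and no call with an offset for effective length. *Rpl39-ps* overlapped between the groups and lost its call without any 1 IM2 library and without replicate 2 or 3 of IM3, at log2 fold changes of -2.01 to -1.26.

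The remaining genes with the largest differences belong to no list. Among those higher, *Htra1*, a secreted serine protease that can cut matrix and TGF-beta ligands, had 9878, 10413 and 11121 normalized read counts in IM2 and 853, 693 and 700 in IM3 (log2 fold change 3.80 ± 0.15, edgeR adjusted p = 3.44e-16). *Vrtn*, a regulator of vertebral number, was called higher by 3.76, beside a mean of 18138 at the M stage. *Itga7*, a laminin-binding integrin, had 2631, 2743 and 2684 in IM2 and 297, 272 and 269 in IM3, and *Adgra1*, *Igfbp7* and *Pcsk1n* were called higher by 3.39, 3.34 and 3.48. Among those lower, the channel genes *Kcnh7* and *Cacna2d2* had log2 fold changes of -3.06 and -3.00, and *Angptl7*, a secreted angiopoietin-like protein, had 212, 246 and 190 in IM2 and 1252, 1688 and 1355 in IM3. *Tcerg1l*, *Nell1* and *Nxph3* were called lower by -3.43, -2.80 and -2.75. The groups were separate for all these genes. The largest values are uncertain. *Gm21887* had 237, 532 and 398 in IM2 and 10.5, 2.97 and 1.45 in IM3, with a wide error (log2 fold change 6.09 ± 1.22). *AY036118*, whose exons lie wholly within other genes, had 0 counts in IM2 and 6952, 3786 and 20314 normalized read counts in IM3.

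The called genes were set beside the M stage that came before and beside IM1, which lacks both Activin A and retinoic acid. Of the 512 genes higher in IM2, 286 (55.9%) had a mean at the M stage below both media, 137 (26.8%) between them and 89 (17.4%) above both. For uncalled genes with a mean of at least 100 and a positive value these shares were 46.1%, 12.8% and 41.0%. Of the 280 lower genes, 172 (61.4%) were below both media at the M stage, 72 (25.7%) between them and 36 (12.9%) above, beside 35.7%, 11.4% and 52.9% of uncalled genes with a negative value. In IM1, 49 of the 512 (9.57%) had a mean below both media, 251 (49.0%) one between them and 212 (41.4%) one above both, beside 23.6%, 26.3% and 50.1% of the uncalled genes with a positive value. Of the 280 these numbers were 156 (55.7%), 107 (38.2%) and 17 (6.07%), beside 54.1%, 26.1% and 19.8% of the uncalled genes with a negative value. A mean between the media is more frequent where the media lie far apart, so these shares are given as a description. *Lefty1* (99.7), *Eomes* (241) and *Six2* (378) were each between IM3 and IM2 in IM1, while *Wt1* (456) and *Hoxa4* (17.7) were below both media there and *Tbx4* (20007) above both.

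IM5 and IM4 differ in Activin A in the same way with CHIR99021 in both media, and their 6 libraries are none of those of IM2 and IM3. In that pair 548 genes (2.63%) were called higher and 304 (1.46%) lower with Activin A, and 437 and 321 with the GC trend offset. Of the genes called higher, 416 were shared, which is 81.2% of the 512 without CHIR99021 and 75.9% of the 548 with it, and of those called lower 223, which is 79.6% of the 280 and 73.4% of the 304. All 512 and all 280 had the same sign in the other pair. The pairs also differ in the same direction in other measures, with a GC trend of 0.13 to 0.42 in IM5 and -0.36 to -0.19 in IM4, and red cell genes at 0.664 to 0.859 and 8.32 to 19.7 CPM. Stress genes were at 380 to 404 CPM in IM5 and 180 to 234 CPM in IM4, and mitochondrial genes took 1.36% to 1.57% and 1.68% to 1.78% of the counts. Their part in the overlap was not tested. The log2 fold changes with CHIR99021 were 4.90 for *Lefty1*, 4.91 for *Eomes*, 3.63 for *Six2* and -2.55 for *Wt1*.

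**Figure D5:**
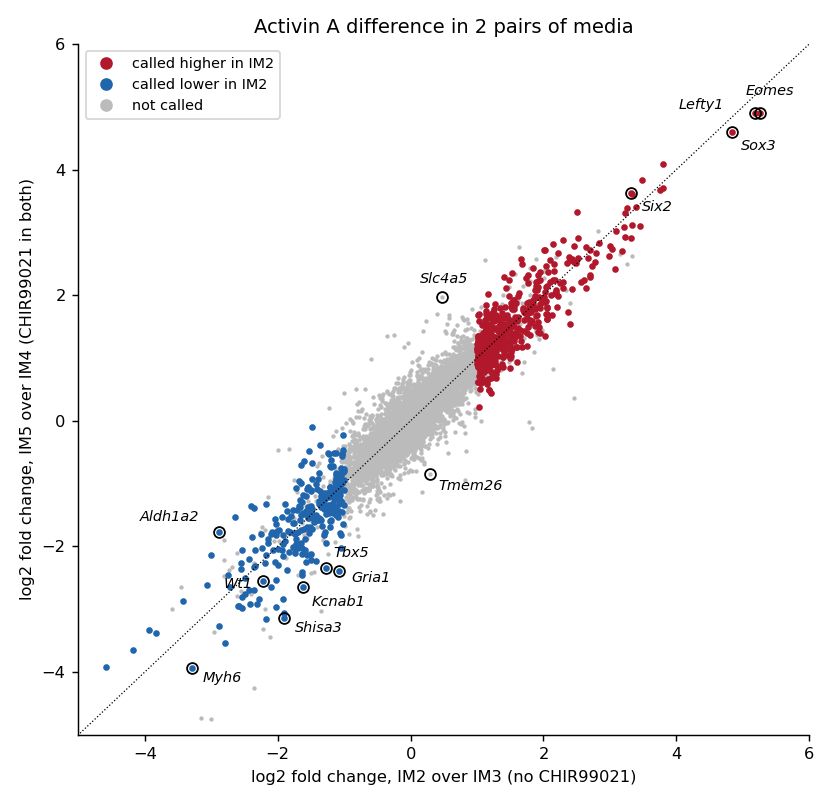
Log2 fold change of IM2 over IM3 (horizontal) against that of IM5 over IM4 (vertical) for genes with some expression in IM2 or IM3, with a point for each gene, red and blue for the genes called in IM2 against IM3 and a dotted line where both are equal. Circles mark named genes, and 4 called genes (*AY036118*, *B430305J03Rik*, *Gm21887* and *Hbb-bs*) lie outside the plotted range. All called genes lie on the same side of 0 in both pairs.

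The interaction, the log2 fold change of IM2 over IM3 minus that of IM5 over IM4, passed the thresholds for 7 genes, or 0.0336% of the genes tested, 5 with a positive and 2 with a negative value. The count was 3 to 5 when 1 IM2 or IM3 library was left out (4 without replicate 1 and 3 without replicate 3 of IM2, 4 without replicate 1 and 3 without replicate 2 of IM3), and 12 by the DESeq2 Wald test. *Aldh1a2* differed more without CHIR99021: its log2 fold change was -2.89 for IM2 over IM3 and -1.77 for IM5 over IM4 (interaction -1.12, edgeR adjusted p = 0.00369). Its mean normalized read count was 940 in IM3 but 335 in IM4, the media without Activin A, beside 127 in IM2 and 98.3 in IM5. *Tbx5* differed less without CHIR99021, at -1.27 and -2.34 (interaction 1.07, edgeR adjusted p = 0.000666), with means of 2869 (IM3) and 2815 (IM4) without Activin A beside 1191 (IM2) and 556 (IM5) with it. *Kcnab1*, a potassium channel subunit, *Shisa3*, *Gria1*, a glutamate receptor subunit, and *Tmem26* also had positive interactions, of 1.02, 1.23, 1.305 and 1.13. *Slc4a5*, a bicarbonate transporter, had a log2 fold change of 0.47, not called, without CHIR99021 and of 1.96 with it.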

How the data were processed

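RNA of 27 libraries in 9 groups was sequenced by the authors, who trimmed the reads with Cutadapt 1.9.1, aligned them to GRCm38 with STAR 2.5.2a and ran RSEM 1.3.0 (versions per the submitters' processing notes). The deposited expected counts are RSEM's estimated fragments per gene, without normalization between libraries, and the deposited TPM values are these estimates per effective length, scaled to 1 sum per library. Whether the counting used strand is not given in the sources used here. The files list 48795 Ensembl genes, of which 48435 (99.26%) were named from GENCODE M21 on the same build.

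Groups and replicate numbers came from sample titles. Expected counts were rounded, filterByExpr of edgeR 4.0.16 (R 4.3.3) kept 20839 genes, and glmQLFit and glmQLFTest were run with TMM factors in 1 model over 27 libraries, Benjamini-Hochberg adjusted over all genes. DESeq2 1.42.0 was an alternative. The GC offset took out each library's trend of counts over 50 bins of exonic GC content. The method was tested on simulated counts. A floor of 3 counts covers counting error only. Two-sided exact permutation tests used library values. Genes with over 50% of their exons inside other genes are named as uncertain.

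The comparison, the gene lists and the tests were chosen with earlier results of these data known. Named were *Lefty1*, *Eomes* and *Six2*, the 15 largest rises and falls with separate groups, from each list up to 5 called members per direction and 2 uncalled members of the highest counts, the largest interactions, and the 5 called genes of highest TPM per direction. Further list members named for context (such as *Pmepa1*, *Gsc*, *Otx2*, *Pax2* and the receptors) and *B430305J03Rik* were chosen after their values were seen. The values of 1 gene of the lists are not reported here, though it is in the counts.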

Additional observations from a re-analysis of the deposited data

Results flagged for a closer look

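The Activin A difference itself differed between the media without and with CHIR99021 for 7 genes past all thresholds (edgeR test of the interaction). Among the named genes, the interaction passed an adjusted p of 0.01 at log2 values of -1.49 for *Slc4a5*, -1.12 for *Aldh1a2*, 1.02 for *Kcnab1*, 1.07 for *Tbx5*, 1.13 for *Tmem26*, 1.23 for *Shisa3* and 1.305 for *Gria1*. For 2 more named genes it passed this adjusted p with less than a 2-fold interaction, namely -0.67 for the Wnt inhibitor gene *Dkk1* and 0.70 for *Tek*. Without and with CHIR99021, the log2 fold changes were 1.44 and 2.11 for *Dkk1* and -0.65 and -1.35 for *Tek*, the last not called without CHIR99021. Groups of 3 libraries were not screened for outlying samples.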

How the results depend on the processing

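The number of genes called in IM2 against IM3 was 792, and it lay between 742 and 807 with DESeq2 size factors (792), the DESeq2 Wald test (783), an offset for effective length (780), no filter on low counts (807), the 6 libraries alone (762), an adjusted p of at most 0.05 (798) or the GC trend offset (742). It was 1509 without the count minimum and 5430 without the fold minimum, both of which admit more genes by construction. Leaving out 1 library gave 770 to 836 genes. The interaction count of 7 was less stable, at 12 with the DESeq2 Wald test, 13 with no filter on low counts, 3 with the length offset, 3 with only IM2 to IM5, 36 without the fold minimum and 3 to 5 without 1 library (4 without replicate 1 and 3 without replicate 3 of IM2, 4 without replicate 1 and 3 without replicate 2 of IM3); the cause was not tested.

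With the replicate number as a block, 794 genes were called and 6 interactions, and 742 and 5 with the GC trend offset as well. The numbers share no stated source. The correlations of same-numbered deviations were -0.04, 0.06 and -0.14, within the -0.14 to 0.18 of differently numbered pairs. With so few libraries they cannot show whether equal numbers mark a shared culture or run.

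With the GC trend offset, list medians became 0.36 for the pathway components (0.43 with no filter on low counts), 1.18 for paraxial, 0.13 for lateral plate, 0.21 for BMP (with 1 gene called higher), -0.24 for retinoic acid, 1.48 for neural, -1.15 for Hox groups 1 to 8, -3.18 for primitive erythroid, 0.29 for mesenchymal, 0.30 for matrix, 0.60 for visceral endoderm and trophoblast, and 0.46 for stress genes. The GC trend difference was 0.222 to 0.400 without 1 library, and the red cell difference -16.3 to -9.53 CPM, or -48.0 in summed TPM.

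Among the named genes that were called, none changed direction in any alternative run. Uncalled genes near 0 did, namely *Itga8*, *Lfng*, *Tnni1*, *Fn1*, *Tbx20* and *Acvr2b* with the GC trend offset, *Zic1* with the length offset, and *Itga8*, *Tnnt2*, *Spred1* and *Zic1* without 1 library, so no direction is drawn for these. In the fit of 6 libraries, *T*, *Sp5*, *Lhx1*, *Cdx1*, *Zic2*, *Tdgf1*, *Aldh1a1* and *Erbb4* were not called because their mean over these libraries is under the count minimum. Depth limits genes of low counts such as *Pax2* and *Gsc*.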

Other observations

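Of 10 visceral endoderm and trophoblast markers, 3 were called higher in IM2 and 0 lower, beside 2.46% and 1.34% of all genes tested. *Afp*, the fetal plasma protein of yolk sac and liver, had normalized read counts of 11056, 13885 and 13448 in IM2 and 3964, 3555 and 3841 in IM3 (log2 fold change 1.76 ± 0.14), beside a mean of 2.56 at the M stage. *Apoa1* had a log2 fold change of 0.91 and *Ttr* one of 0.26, and neither was called. The other 2 called were *Eomes* and *Tfap2c*, the last of which was not called with the GC trend offset (0.99). *Elf5* had a mean of under 4 in both groups.

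Of 9 immediate-early and heat-shock genes 1 (11.1%) was called higher, beside 2.46% of all genes tested, and 0 lower. *Junb*, which encodes a subunit of the AP-1 transcription factor, had 4313, 6460 and 6393 normalized read counts in IM2 and 899, 903 and 841 in IM3 (log2 fold change 2.70 ± 0.17, and 2.18 with the GC trend offset). *Jun*, *Fos* and *Egr1* had log2 fold changes of 0.65, 0.39 and 0.84, and *Atf3* and *Ddit3* -0.08 and -0.05.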
